A study of Mus musculus with 3 samples.

Results

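The genes described here are 63 members of the splicing machinery, chosen by name alone as every listed gene whose symbol begins with Srsf, Hnrnp, Sf3a, Sf3b, Snrp, U2af or Prpf. They are 63 of the 12880 genes listed in at least 1 of the deposited tables, and each of the 63 is listed in every table. They comprise 10 serine/arginine-rich (SR) proteins, 18 heterogeneous nuclear ribonucleoproteins (hnRNPs), 8 subunits of SF3A and SF3B, 11 Snrp proteins of the small nuclear ribonucleoproteins, 3 U2AF proteins and 13 pre-mRNA processing factors (PRPF proteins). RNA was sequenced from lung macrophages of LysM-GFP mice on the C57BL/6 background, in which the lysozyme M locus drives a green fluorescent protein in myeloid cells. The mice were 6 to 8 weeks old, and lung injury was brought on with nebulized lipopolysaccharide (LPS, a bacterial product that TLR4 senses), dissolved at 1 mg/ml in saline. GFP+, Ly6g-negative, CD64+ cells were sorted at 0, 4 and 24 h, and each time is represented by 1 library. A digestion of 50 min at 37 degrees is given for every sample. The column headings also name CD11b, a marker absent from the sorting text. The 3 groups share genotype, strain, age and the described treatment, and it is not stated if the 0 h animals were left untreated or were taken straight after nebulization. How many animals went into a library is not given in the sources used here. With 1 library per time there is no replicate check and no test between times, and "higher" and "lower" compare these libraries only.

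The spliceosome is assembled anew on each intron. The U1 particle marks the 5′ splice site, U2AF and the U2 particle with its SF3A and SF3B subunits mark the branch point and the 3′ splice site, and the U4/U6.U5 particle, which holds Prpf8, then joins to form the active site. SR proteins mostly favour the use of the exons they bind, hnRNPs coat new transcripts and often hold splicing back, and many SR and hnRNP genes limit their own level through alternative exons that route the transcript to nonsense-mediated decay. In macrophages, splicing is known to shape the response to LPS: the SF3A and SF3B subunits act on the splice forms of the TLR adaptor Myd88, and Hnrnpm has been described as holding back the splicing of some innate immune transcripts.

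Levels below are normalized read counts, that is whole reads recovered from the deposited values and divided by a size factor per library. A fold is the ratio of 2 such levels, and the interval after it is the exact 95% binomial (Clopper-Pearson) interval of the reads, which speaks only to the error of counting, because these reads carry no molecular identifiers and are not independent molecules. A member is counted as at least 2-fold (or 1.5-fold) different on the log2 ratio with a pseudocount of 1.

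The promoters of 5 members are shown because these genes carry the main patterns described below: Hnrnpa3 and Prpf4b were above 2-fold higher in the 4 h library, Srsf5 was the SR gene highest there and near its 0 h level in the 24 h library, Snrpf was the member furthest above 0 h at 24 h, and Prpf8 the member furthest below. Each runs 5′ to 3′ on the gene's strand from 250 bases before to 50 bases after a RefSeq transcription start of build GRCm38.p6 (the mm10 sequence). Capitals mark an ETS core (CCGGAAG) or a YY1 core (ATGGCG), read on either strand. They lie at chr2:75659009-75659308 (+) for Hnrnpa3, chr13:34875279-34875578 (+) for Prpf4b, chr12:80945249-80945548 (+) for Srsf5, chr10:93589609-93589908 (-) for Snrpf and chr11:75486527-75486826 (+) for Prpf8.
Hnrnpa3: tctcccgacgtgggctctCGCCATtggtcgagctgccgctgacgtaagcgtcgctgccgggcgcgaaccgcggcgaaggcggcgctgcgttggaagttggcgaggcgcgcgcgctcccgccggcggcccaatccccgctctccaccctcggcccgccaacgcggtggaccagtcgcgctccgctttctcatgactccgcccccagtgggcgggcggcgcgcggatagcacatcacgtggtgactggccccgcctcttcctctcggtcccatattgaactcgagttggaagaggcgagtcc
Prpf4b: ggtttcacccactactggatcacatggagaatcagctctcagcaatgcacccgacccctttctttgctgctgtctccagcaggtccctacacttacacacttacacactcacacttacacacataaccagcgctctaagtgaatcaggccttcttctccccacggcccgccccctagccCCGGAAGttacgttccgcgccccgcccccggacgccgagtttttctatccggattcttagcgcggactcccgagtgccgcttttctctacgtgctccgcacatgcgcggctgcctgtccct
Srsf5: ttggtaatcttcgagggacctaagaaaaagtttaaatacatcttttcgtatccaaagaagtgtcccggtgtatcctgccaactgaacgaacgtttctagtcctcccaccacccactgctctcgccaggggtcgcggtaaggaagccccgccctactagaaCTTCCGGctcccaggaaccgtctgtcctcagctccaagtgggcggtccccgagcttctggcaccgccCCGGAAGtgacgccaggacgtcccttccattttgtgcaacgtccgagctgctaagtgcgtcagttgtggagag
Snrpf: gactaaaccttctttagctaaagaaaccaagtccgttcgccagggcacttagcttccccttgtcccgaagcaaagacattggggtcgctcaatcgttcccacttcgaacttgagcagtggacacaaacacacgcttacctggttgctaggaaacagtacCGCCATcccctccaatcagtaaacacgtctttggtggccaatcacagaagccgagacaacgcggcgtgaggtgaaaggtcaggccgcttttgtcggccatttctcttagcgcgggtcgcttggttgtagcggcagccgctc
Prpf8: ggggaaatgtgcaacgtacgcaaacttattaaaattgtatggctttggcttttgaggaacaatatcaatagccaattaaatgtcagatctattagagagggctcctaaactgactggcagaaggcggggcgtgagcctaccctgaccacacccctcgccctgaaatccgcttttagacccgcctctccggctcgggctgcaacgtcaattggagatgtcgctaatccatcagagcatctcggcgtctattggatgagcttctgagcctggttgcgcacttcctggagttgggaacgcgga

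The Hnrnpa3 promoter held a YY1 core at position -232 from the start, overlapping a CCAAT box, and the Snrpf promoter held one at position -91. Prpf4b had an ETS core at position -71 and Srsf5 had 2 of them, whereas the Prpf8 window held neither core. CCAAT boxes numbered 3 in the Prpf8 window, 3 in that of Snrpf and 2 in that of Hnrnpa3, with 0 for Prpf4b and Srsf5. RefSeq promoters matched 55 of the 63 members, with 73 starts among them, and 8 members had no entry. An ETS core was found in 24 of the 73 member promoters (32.9%), against 16.8% of 11677 promoters of listed genes and 8.86% of all 32851 mouse promoters of this length. The YY1 core was found in 21 (28.8%), against 14.4% and 8.93%, and CCAAT in 37 (50.7%), against 37.7% and 37.4%. Promoters of the SF3A and SF3B genes held an ETS core in 6 of 7, SR promoters in 6 of 13 and hnRNP promoters in 4 of 26. TATAAA was found in 6 member promoters (8.22%), against 7.40% of those of listed genes. The interferon response element was found in 1, that of a PRPF gene (1.37% against 3.16%). These are matches of letters on both strands and not bound sites, and promoters of the same gene overlap.

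The libraries of 0, 4 and 24 h held 24825976, 20379236 and 25135476 reads, of which the 63 members took 0.734%, 0.898% and 0.936%. Apart from treatment, the libraries differed in several measured ways that cannot be told apart from time. Xist had 13705, 4 and 1 reads at 0, 4 and 24 h, while the Y-linked gene Ddx3y had 4, 3994 and 2357. By these genes the 0 h library came mainly from female cells and the 4 and 24 h libraries from male cells. Sex thus cannot be told apart from time in the comparisons with 0 h. At 4 h, 14 of 16 listed alveolar macrophage markers were at least 2-fold lower than at 0 h (summed level 829658, 307072 and 482188 at 0, 4 and 24 h) and 12 of 13 classical monocyte markers were at least 2-fold higher (146247, 594697 and 119997). The 10 neutrophil markers listed at both times were all at least 2-fold higher at 4 h (summed level of the list 5033, 39733 and 8141), with Ly6g, Elane and Mpo not listed. The macrophage receptors Marco (12151, 15307 and 15372) and Mrc1 (40478, 15215 and 30008) were present in every library. Interstitial macrophage markers summed to 10727, 22563 and 14786, and lung epithelial markers to 16061, 18355 and 16703. Lymphocyte markers summed to 182.1, 261 and 390.3, with Cd3e, Cd8b1, Trac and Pax5 not listed. Cell division genes were at least 2-fold lower at 4 h in 17 of 20 cases, with summed levels of 20336, 9106 and 17949.6. No listed marker was at 0 reads in any library. The part of these shifts in the values below was not tested, and in bulk RNA fewer cells of a type and less RNA per cell cannot be told apart.

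Across the 63 genes, the 4 h library was mostly higher than the 0 h library and in no case 2-fold lower. The log2 ratio was above 0 for 43 members and below 0 for 20, against 50.1% above 0 among all 12512 genes compared. At least 2-fold higher were 5 members, against 15.0% of all genes, and 2-fold lower were 0, against 14.2%. At the 1.5-fold threshold the counts were 18 higher (28.6% of the members, against 25.2% of all genes) and 0 lower (against 23.6%). The median log2 ratio of the members was 0.24, with quartiles of -0.10 and 0.70, while that of all genes was 0.00, with quartiles of -0.54 and 0.59. With these size factors the members thus had about as many ratios past 1.5-fold upward as all genes, and none downward. Scaled by total reads, 15 members were past 1.5-fold upward and 2 downward, against 2569 and 3633 of 12512 genes.

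At 24 h versus 0 h, 44 members were above 0 and 19 below, against 49.8% above 0 among 12481 genes. Only Snrpf was at least 2-fold higher (background, the share among all genes, 4.70%) and only Prpf8 at least 2-fold lower (background 8.82%), and at 1.5-fold there were 13 higher (background 13.4%) and 2 lower (background 19.0%). The median log2 ratio was 0.29 for the members and 0.00 for all genes. At 24 h versus 4 h, 27 members were above 0 and 36 below (background 50.1% above 0), with 2 members 2-fold or more higher (background 14.1%) and 2 that much lower (background 17.6%). At 1.5-fold in that comparison 7 were higher (background 26.1%) and 11 lower (background 28.2%). These comparisons share libraries and are not independent of each other. Of the 63 members, 10 (15.9%) had their highest level at 0 h, 32 (50.8%) at 4 h and 21 (33.3%) at 24 h, against 28.4%, 40.4% and 31.2% of the 12481 genes listed in all libraries, so the share highest at 24 h was near that of all genes.

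**Figure D1:**
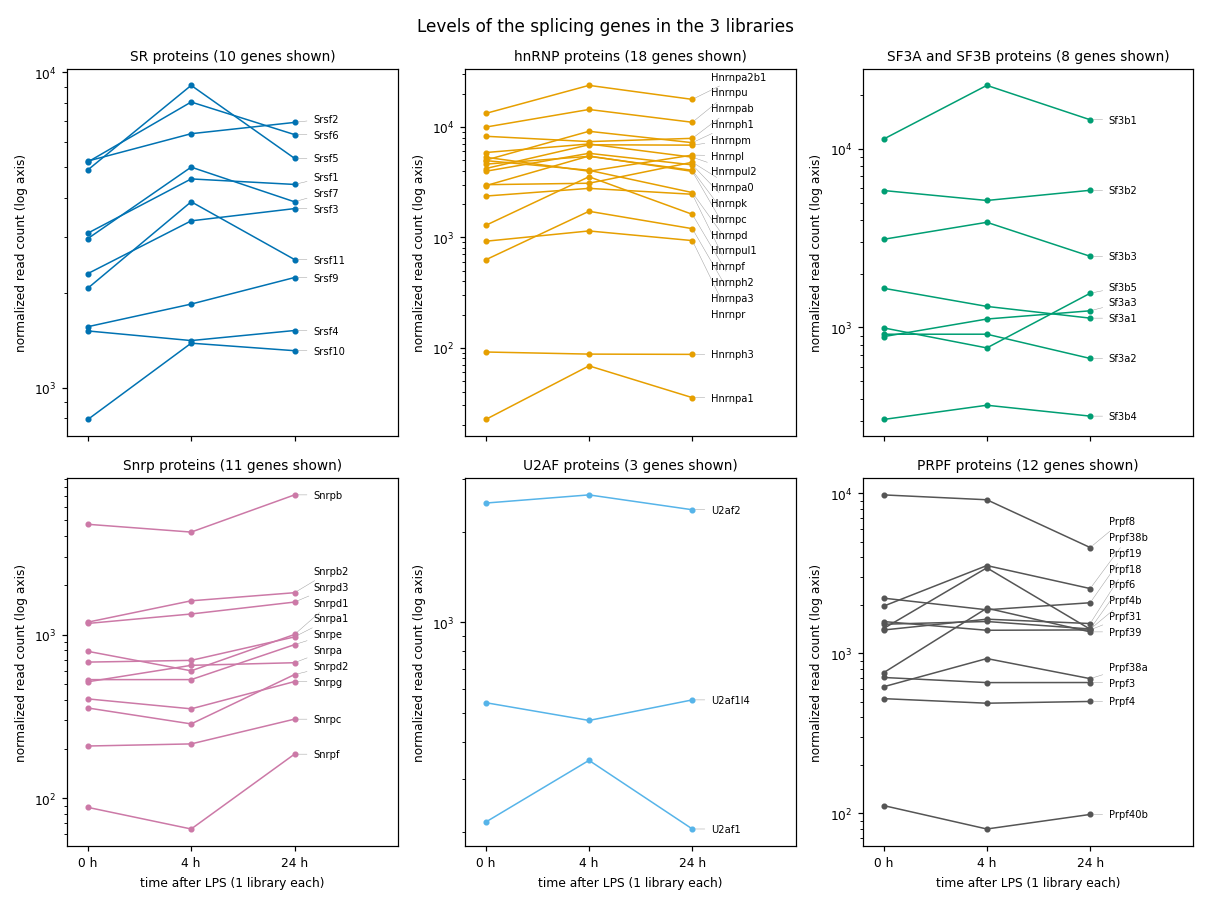
Normalized read count (log axis) of 62 of the 63 splicing genes in the 0, 4 and 24 h libraries, 1 panel per family, with 1 point per library and lines joining the same gene. All 11 Snrp genes are highest at 24 h, 13 of 18 hnRNP genes are highest at 4 h, and no PRPF gene is highest at 24 h.

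The SR genes were higher at both later times. Their summed level was 29611 at 0 h, 44999 at 4 h and 38204 at 24 h. Of the 10 genes, 9 were above 0 h at 4 h and all 10 at 24 h, with median log2 ratios of 0.60 and 0.40, and 5 (50%) and 2 (20%) of them reached 1.5-fold, against 25.2% and 13.4% of all genes. None was at least 2-fold different in any comparison. The family split by time: 6 genes were highest at 4 h and 4 at 24 h.

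Srsf11, an SR-related protein, had levels of 2067, 3884 and 2548 at 0, 4 and 24 h, a 1.88-fold higher level at 4 h (1.78 to 1.99). Srsf5 (chr12:80945503-80950507 in mm10 as listed), a classical SR protein, had 4901, 9084 and 5334, which is 1.85-fold higher at 4 h (1.79 to 1.92) and 1.09-fold higher at 24 h (1.05 to 1.13). For both genes the 4 h library stood well above the other libraries. Srsf10, known for its dephosphorylation on heat shock, showed another course, with 793, 1384 and 1309.8, so that it was 1.75-fold higher at 4 h (1.59 to 1.91) and still 1.65-fold higher at 24 h (1.52 to 1.80). Srsf3, the smallest classical SR protein and an mRNA export adaptor, was highest at 24 h, with 2299, 3379 and 3695 (1.47-fold at 4 h, 1.39 to 1.55, and 1.61-fold at 24 h, 1.53 to 1.69). Srsf7, its close relative, had 2969, 5001 and 3883 (1.68-fold at 4 h, 1.61 to 1.77). Thus the pair of related shuttling proteins differed in which library was highest.

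Srsf6, known as a regulator of alternative exons, had 5193, 8044 and 6343 (1.55-fold at 4 h, 1.49 to 1.61). Srsf1, the founding SR protein, had 3089, 4589 and 4408, nearly the same in the later libraries (1.49-fold and 1.43-fold above 0 h). Srsf2, which binds exonic enhancers and stays in the nucleus, went from 5228 to 6384 and 6931, and Srsf9 from 1560.5 to 1841 and 2234. Srsf4 was the member of the family nearest to its 0 h level throughout, with 1513, 1410.3 and 1518, and its interval included 1 at 4 h (0.863 to 1.01) and at 24 h (0.938 to 1.07). Per kb of transcript, the highest SR levels at 4 h were those of Srsf5 (6064), Srsf6 (3980.2) and Srsf2 (3960.0), and the lowest that of Srsf10 (453).

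The hnRNP genes were the most abundant family and for the most part highest at 4 h. Their summed level was 76564 at 0 h, 105621 at 4 h and 87750.5 at 24 h. At 4 h 14 of 18 were above 0 h, with a median log2 ratio of 0.42, and 7 (38.9%) reached 1.5-fold, against 25.2% of all genes. The 3 that reached 2-fold are 16.7% of the family, near the 15.0% of all genes. At 24 h 13 of 18 were above 0 h with a median of 0.17, and 15 of 18 were below their 4 h level with a median of -0.37.

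Hnrnpa3 (chr2:75659258-75669407), a protein of the A/B group known for binding RNA trafficking signals, had levels of 626, 1721 and 1198 at 0, 4 and 24 h. It was 2.75-fold higher at 4 h (2.51 to 3.02) and 1.91-fold higher at 24 h (1.75 to 2.10). Hnrnph2 (chrX:134601178-134607057), which binds runs of G near splice sites, had 1283, 3538 and 1615.5, so that it was 2.76-fold higher at 4 h (2.58 to 2.94) and 2.19-fold lower again at 24 h versus 4 h (2.07 to 2.32). Its autosomal relative Hnrnph1 had 4999, 9125 and 7199, 1.83-fold higher at 4 h (1.76 to 1.89). Both H genes were highest at 4 h and remained above 0 h at 24 h, by 1.26-fold and 1.44-fold. Hnrnph2 is X-linked, and the 0 h library differed in sex from the later libraries. The third gene past 2-fold, Hnrnpa1 (chr15:103240396-103246698), rested on 24, 54 and 43 reads, with levels of 22.4, 68.5 and 35.3. Its ratio at 4 h was 3.06 with an interval of 1.86 to 5.17, and at 24 h 1.58 with an interval of 0.935 to 2.72. Hnrnpa1 is known as one of the most abundant nuclear RNA-binding proteins and has many processed pseudogenes, and how reads shared with such copies were counted is not given in the sources used here, and its level is uncertain.

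Hnrnpa2b1, the abundant partner of Hnrnpa1, had the highest level of all members, 13244, 23780.1 and 17752 (1.80-fold at 4 h, 1.76 to 1.84), and also the highest per kb of transcript, 8041, 14438 and 10779. Hnrnpd (AUF1), a decay factor for cytokine transcripts with AU-rich elements, had 2935, 5451 and 3957 (1.86-fold at 4 h, 1.77 to 1.95). Hnrnpu, a nuclear scaffold protein, had 9962, 14384 and 11016 (1.44-fold, 1.41 to 1.48), and Hnrnpk, which binds C-rich stretches, had 3965, 5764 and 4532 (1.45-fold, 1.39 to 1.52). All 4 were highest at 4 h and between the other values at 24 h. Hnrnpm had 4198, 6890.1 and 6837, so that its 24 h level stayed 1.63-fold above 0 h (1.57 to 1.69) and its interval against 4 h included 1 (0.959 to 1.03).

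A few hnRNPs went another way. Hnrnpa0, a single-exon gene whose protein binds AU-rich elements of cytokine transcripts in LPS-stimulated macrophages, was near its 0 h level at 4 h and higher at 24 h, with 2998, 3089.6 and 4788 (1.60-fold at 24 h, 1.53 to 1.67). Hnrnpl, which binds CA repeats and acts on alternative exons of Ptprc, was lower at 4 h and back at 24 h, with 5312, 3971 and 5557 (1.34-fold lower at 4 h, 1.28 to 1.40). Hnrnpul1 was lower at each later time, with 4955, 4047 and 2543 (1.22-fold lower at 4 h, 1.17 to 1.28, and 1.95-fold lower at 24 h, 1.86 to 2.04), the nearest hnRNP to 2-fold lower. Hnrnpab had 8227, 7364 and 7880.3, and Hnrnpc, which binds U-rich stretches and competes with U2af2, had 4601, 5414 and 4045. Hnrnph3 had 98, 69 and 106 reads, too few to place it above or below 0 h at either time. The remaining members, Hnrnpf, Hnrnpr and Hnrnpul2, were 1.17-fold, 1.24-fold and 1.20-fold higher at 4 h and at most 1.10-fold from 0 h at 24 h.

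**Figure D2:**
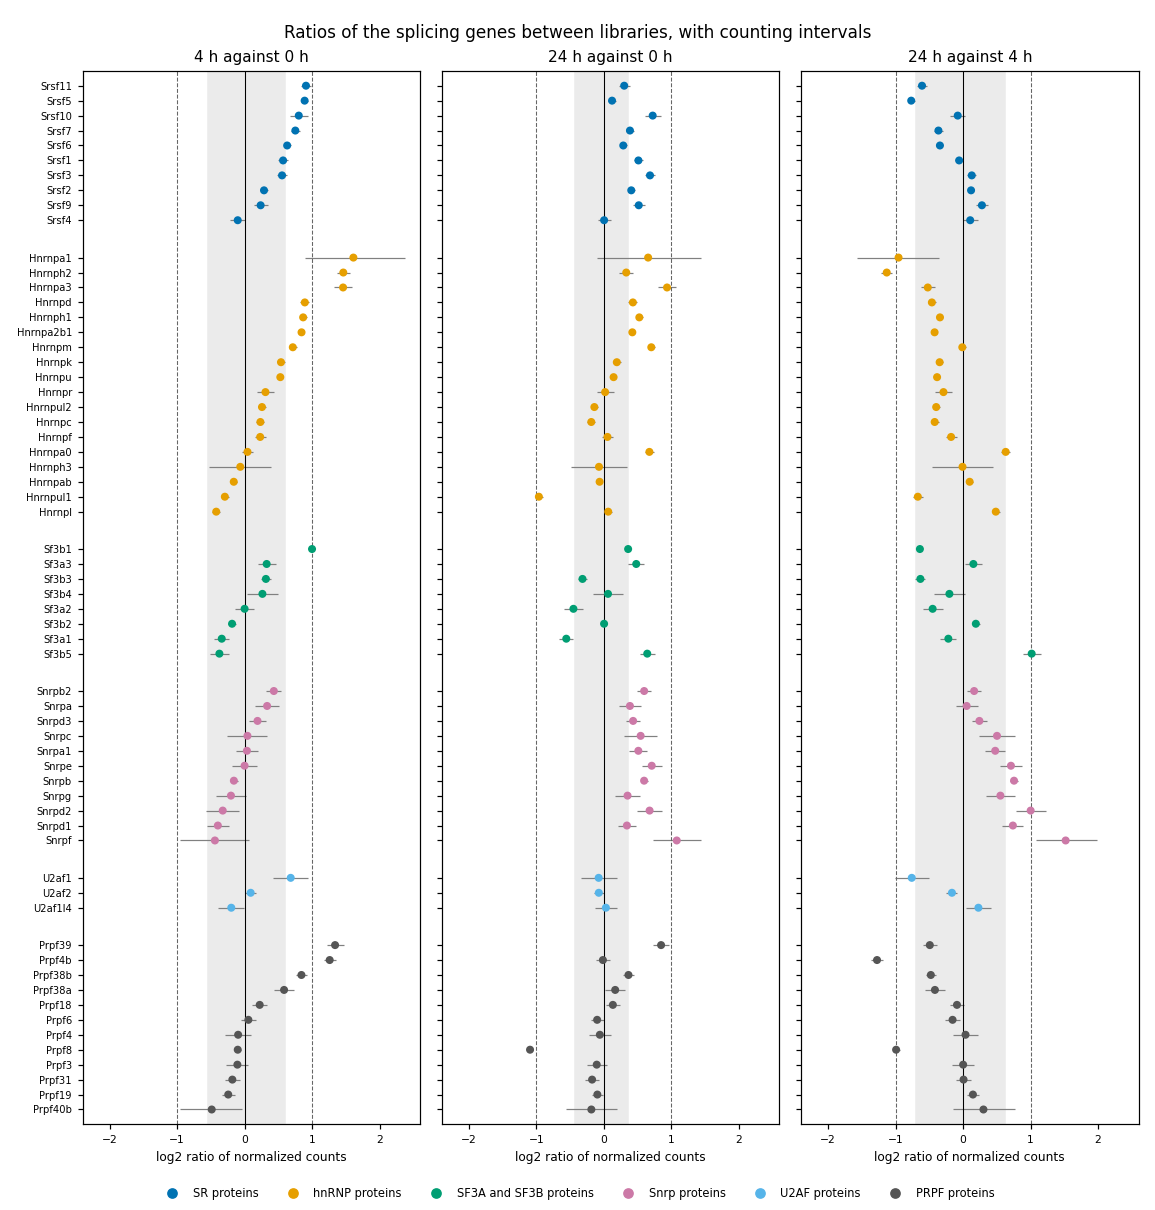
Log2 ratio of normalized counts of 62 of the 63 splicing genes for the 3 comparisons of libraries, coloured by family, with 95% counting intervals as horizontal lines. The grey band spans the quartiles of all genes and the dashed lines mark 2-fold, and the 11 Snrp genes lie above 0 in both 24 h panels while 15 of 18 hnRNP genes lie below 0 at 24 h versus 4 h.

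The branch point factors gave no common direction. The summed level of the SF3A and SF3B genes was 25043, 36142 and 27810.2 at 0, 4 and 24 h, and the difference between 0 and 4 h was no larger than that of Sf3b1 alone. Sf3b1 (chr1:54985169-55027478), the large scaffold that clamps the branch helix, had 11326, 22650.4 and 14540.3. Its ratio of 2.0 at 4 h (1.95 to 2.05) lay just under the 2-fold threshold, and at 24 h it was 1.28-fold above 0 h (1.25 to 1.31). At each later time 5 of the 8 genes were above 0 h, with medians of 0.13 and 0.03. Sf3a3, another SF3A subunit, had 888, 1114 and 1239 (1.40-fold at 24 h, 1.29 to 1.51). Sf3a1, the SF3A subunit that contacts U1, had 1658, 1311 and 1127, lower at each later time (1.26-fold lower at 4 h and 1.47-fold lower at 24 h, 1.37 to 1.58). Sf3a2 was equal at 0 and 4 h and lower at 24 h, with 916, 916 and 671 (1.37-fold lower, 1.24 to 1.5).

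Sf3b5 (chr10:13008449-13009183), a small subunit encoded by a single exon, had the opposite course to Sf3b1, with 995, 768 and 1554. It was 1.30-fold lower at 4 h (1.17 to 1.43), 1.56-fold higher at 24 h versus 0 h (1.45 to 1.69) and 2.02-fold higher at 24 h versus 4 h (1.85 to 2.22). Sf3b2 had 5841, 5137 and 5858, Sf3b3 3114, 3878 and 2502, and Sf3b4 305, 367 and 319, so the subunits of 1 complex did not share a highest library. Among the U2AF genes, U2af1, which reads the AG at the 3′ splice site, had 216, 347 and 205 (1.61-fold higher at 4 h, 1.34 to 1.92). U2af2, its large partner on the polypyrimidine tract, had 2499.9, 2662 and 2375, and U2af1l4, a related small subunit, had 539.8, 471 and 551. U2af1 was thus the member of the family furthest from 0 h at 4 h, and at 24 h no U2AF interval excluded 1.

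All the Snrp genes had their highest level in the 24 h library. Their summed level was 10659 at 0 h, 10572.5 at 4 h and 15622 at 24 h. At 4 h 6 were above 0 h and 5 below, with a median log2 ratio of 0.00. In the 24 h library all 11 were above 0 h and above 4 h, with medians of 0.54 and 0.55, and 5 of the 11 (45.5%) reached 1.5-fold in each comparison, against 13.4% and 26.1% of all genes and 47.9% and 44.0% of the cytosolic ribosomal protein genes. The 7 genes of the Sm ring, which closes around each spliceosomal RNA, had medians of -0.20 at 4 h versus 0 h, 0.60 at 24 h versus 0 h and 0.74 at 24 h versus 4 h. For the 4 proteins particular to U1 or U2 the medians were 0.19, 0.53 and 0.32. Both sets were highest at 24 h, and 5 of the 7 Sm genes were below 0 h at 4 h where all 4 U1 and U2 genes were above it.

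Snrpf (chr10:93583028-93589658), the F protein of the ring, had 94, 51 and 226 reads and levels of 87.8, 64.7 and 186. It was 2.12-fold higher at 24 h than at 0 h (1.66 to 2.72) and 2.87-fold higher than at 4 h (2.11 to 3.97). Snrpb, which encodes the B and B' proteins and was the most abundant Snrp gene, had 4727, 4236 and 7151 (1.51-fold at 24 h versus 0 h, 1.46 to 1.57). Snrpe had 530.4, 531 and 868 (1.64-fold at 24 h, 1.48 to 1.81), and Snrpd2 356, 284 and 569 (1.60-fold, 1.41 to 1.82). Snrpd2 was also 2.0-fold above 4 h (1.72 to 2.34), just under the threshold once the pseudocount was added. In these 4 genes the 24 h library was the highest and the 0 and 4 h libraries lay close together or 4 h was lowest. Snrpd1 had 790.04, 600.4 and 1002 (1.32-fold lower at 4 h, 1.17 to 1.48, and 1.67-fold higher at 24 h versus 4 h, 1.5 to 1.86), Snrpg 404, 352 and 516, and Snrpd3 1170.1, 1337 and 1581.

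Of the U1 proteins, Snrpa had 515, 649 and 673 and Snrpc 208, 215 and 304 (1.46-fold at 24 h, 1.23 to 1.73). Of the U2 proteins, Snrpa1 had 679, 696 and 968 (1.43-fold at 24 h, 1.30 to 1.57) and Snrpb2 had 1192, 1609.5 and 1804 (1.35-fold at 4 h, 1.25 to 1.46, and 1.51-fold at 24 h, 1.41 to 1.62). Snrpa, Snrpb2 and Snrpd3 were the Snrp genes whose counting interval at 4 h lay wholly above 1. Several Snrp genes are short and have processed copies in the genome, so their levels carry the same doubt about shared reads as Hnrnpa1.

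The PRPF genes split into some that were high at 4 h and others that were level or lower. Their summed level was 25135.5 at 0 h, 31537 at 4 h and 20801 at 24 h. At 4 h 7 were above 0 h and 6 below (background 50.1% above 0). Upward, 2 were past 2-fold (background 15.0%) and 4, or 30.8%, past 1.5-fold (background 25.2%), so the 4 h counts were near those of all genes. At 24 h 4 were above and 9 below (background 49.8% above 0). Prpf39 (chr12:65036333-65063386), a U1-associated factor, had 757, 1919 and 1364, 2.53-fold higher at 4 h (2.33 to 2.76) and 1.80-fold higher at 24 h (1.66 to 1.96). Prpf4b (chr13:34875493-34902878), the kinase that phosphorylates proteins of the U4/U6.U5 particle, had 1431, 3430 and 1417. It was 2.40-fold higher at 4 h (2.25 to 2.55) and 2.42-fold lower at 24 h versus 4 h (2.28 to 2.57), and its interval at 24 h versus 0 h included 1 (0.924 to 1.06). Prpf38b had 1975, 3543 and 2545 (1.79-fold at 4 h, 1.69 to 1.90), and its relative Prpf38a 619, 929 and 696 (1.5-fold, 1.35 to 1.67).

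Prpf8 (chr11:75486776-75509447), the protein that holds the catalytic RNA of the spliceosome, was the most abundant PRPF gene in each library and stood at a lower level at 24 h, with 9797, 9134 and 4593. It was 2.13-fold lower at 24 h than at 0 h (2.06 to 2.20) and 1.99-fold lower than at 4 h (1.92 to 2.06), the latter just short of the threshold. The other PRPF-named subunits of the U4/U6.U5 particle were nearer to their 0 h level. Prpf6 had 1523, 1584 and 1422, Prpf31 1583, 1396 and 1403, Prpf3 708, 658 and 658, and Prpf4 522, 489 and 501. Each of these was at most 1.13-fold from 0 h in both later libraries. U5 proteins outside the naming rule, picked after their values were seen, did not share a direction. The helicase Snrnp200 had 5332, 5327 and 3124 (ratio at 24 h versus 0 h 0.586, 0.562 to 0.611). The GTPase Eftud2 had 2213, 2042 and 1786 (0.807, 0.761 to 0.856). Both were lower at 24 h, whereas Snrnp40 was higher, with 812, 847 and 946 (1.16, 1.07 to 1.27). Prpf19, the ubiquitin ligase of the complex that bears its name, had 2217, 1875 and 2075, and Prpf18, a factor of the second catalytic step, 1402, 1637 and 1538. Prpf40b had 120, 63 and 120 reads and was 1.40-fold lower at 4 h (1.02 to 1.93).

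In the authors' deposited table for 4 h versus 0 h, whose log2 fold changes are drawn toward 0, 3 members reached 1: Hnrnph2 (1.13), Hnrnpa3 (1.12) and Prpf39 (1.03). Hnrnpa1 stood at 0.98 and Prpf4b at 0.98 in the same table. For 24 h versus 0 h the authors' deposited table gave Prpf8 -0.78 and Snrpf 0.68, and for 24 h versus 4 h Snrpf 1.07 and Prpf4b -0.95. The directions of these values are those of the plain ratios, at smaller size.

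Other genes of the pathway, from a list of 77 of which 76 were found (Lsm8 and Ptbp3 under the older symbols Naa38 and Rod1), gave similar counts at 4 h. In that comparison 59 were above 0 h and 17 below (background 50.1% above 0), and the median log2 ratio was 0.30. At least 2-fold higher were 10 of the 76, near the background of 15.0%, and 0 were that much lower (background 14.2%). The highest were Upf2 (620, 1726 and 935 at 0, 4 and 24 h), Magohb (250.3, 680.4 and 477) and Smg1 (4414, 11962 and 2305), which act in nonsense-mediated decay or in the exon junction complex that it reads. Their ratios at 4 h were 2.78 (2.54 to 3.06), 2.72 (2.34 to 3.16) and 2.71 (2.62 to 2.81). Only Snrnp25, of the minor spliceosome, passed 1.5-fold in the lower direction (214, 109 and 367). At 24 h versus 0 h 46 were above and 30 below (background 49.8% above 0). In that comparison 0 were 2-fold higher (background 4.70%) and 1 was 2-fold lower (background 8.82%), Srrm2, a large scaffold of nuclear speckles (13281, 19886 and 4501, log2 ratio -1.56). At 24 h versus 4 h 24 were above and 52 below (background 50.1% above 0). At least 2-fold higher were 3 (background 14.1%), Snrnp25 (log2 1.74), Lsm4 (1.30) and Lsm2 (1.11). At least 2-fold lower were 5 (background 17.6%), led by Smg1 (-2.38), Srrm2 (-2.14) and Son (-1.52). Lsm4 and Lsm2 belong to the ring of the U6 particle, whose other listed genes differed less at 24 h versus 4 h, with ratios of 1.80 for Lsm8, 1.30 for Lsm6, 1.26 for Lsm3 and 0.992 for Lsm5. This list and the members were both chosen with earlier results of these data known.

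What the families share in the annotation differs as well. In GENCODE M21 for GRCm38, 9 of the 10 SR genes have at least 1 transcript annotated as subject to nonsense-mediated decay, as do 8 of 18 hnRNP, 4 of 11 Snrp, 7 of 13 PRPF, 3 of 3 U2AF and 1 of 8 SF3 genes, against 28.9% of 11231 listed genes. Across the members this is 32 of 63. A retained-intron transcript is annotated for 47 of the 63 and for 59.8% of listed genes. The deposited values are per gene, so they do not show which of these transcripts was made at any time.

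Transcript length moved with the 24 h ratios over the whole set of members, though not within every family. The Snrp genes have a median transcript length of 1161 bases, the SR genes 2139, the PRPF genes 3129 and the SF3 genes 3531.5, against 2686 for all genes. Among all genes the median log2 ratio at 24 h versus 0 h was 0.40 for transcripts under 1 kb, 0.22 from 1 to 2 kb, -0.06 from 2 to 4 kb and -0.41 above 4 kb. Members in the same classes had medians of 0.44 (6 genes), 0.43 (18), 0.07 (29) and -0.08 (10). Spearman's rho between ratio and length at 24 h versus 0 h was -0.41 over the 63 members and -0.43 over 10924 genes, and genes of 1 library pair are not independent points. Within families it was -0.41 for the 18 hnRNP and -0.26 for the 13 PRPF genes, but 0.32 for the 10 SR, -0.06 for the 11 Snrp and -0.05 for the 8 SF3 genes. At 4 h versus 0 h it was 0.09 over the members and 0.17 over all genes. The length used for Sf3b5, 3841 bases, is longer than its listed single-exon locus (chr10:13008449-13009183). The SF3 median length and the SF3 rho rest partly on that length and are uncertain, as is the class in which Sf3b5 was counted. Prpf8 (7346 bases) lies among the long transcripts, and 10 of the 11 Snrp genes lie under 2 kb. At 4 h the members of 1 to 2 kb had a median of 0.31 where all genes of that length had -0.15, and at 24 h versus 4 h -0.07 where all genes had 0.40. The part of length in the 24 h values was not tested.

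**Figure D3:**
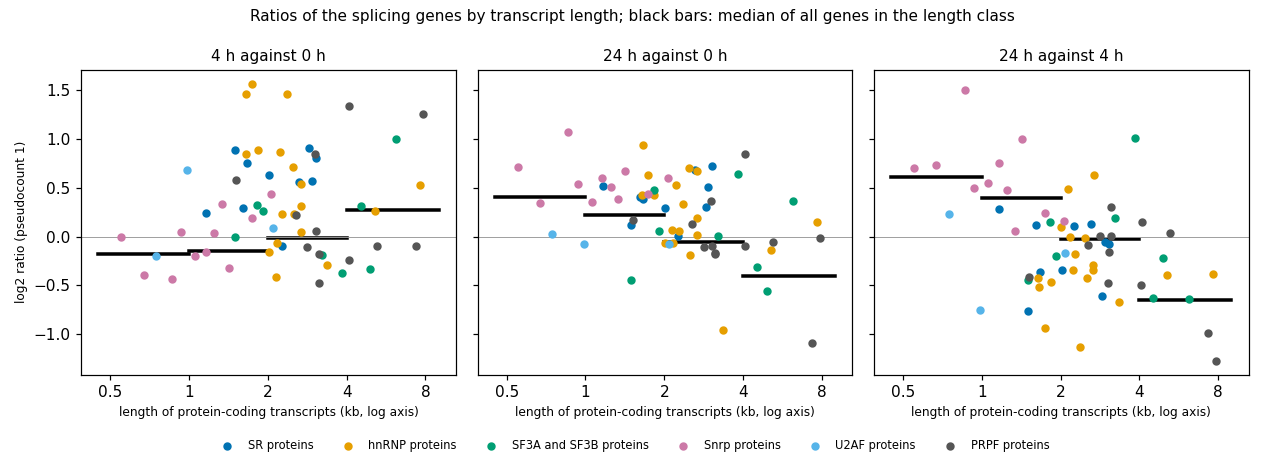
Log2 ratio (pseudocount 1) of 62 of the 63 splicing genes against the median length of their protein-coding transcripts (kb, log axis) for the 3 comparisons, coloured by family. Black bars give the median of all genes in each length class, which at 24 h versus 0 h runs from 0.40 under 1 kb to -0.41 above 4 kb.

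The 24 h values also depended on how the libraries were scaled. Cytosolic ribosomal protein genes, another set of short transcripts, had a median log2 ratio of 0.01 at 4 h versus 0 h, 0.58 at 24 h versus 0 h and 0.47 at 24 h versus 4 h. Centred on them, which moved the median of all genes by -0.01, -0.58 and -0.47, the SR median at 24 h versus 0 h turned from 0.40 to -0.18, the hnRNP median from 0.17 to -0.41 and the Snrp median from 0.54 to -0.03. In that centring 13 members were above 0 and 50 below at 24 h versus 0 h, and 11 and 52 at 24 h versus 4 h. Above 0 were thus 20.6% and 17.5% of the members, against 13.8% and 30.2% of all genes in the same centring. Scaling by total reads moved the median of all genes by -0.16 at 4 h versus 0 h, 0.17 at 24 h versus 0 h and 0.32 at 24 h versus 4 h. The members then stood at 36 above and 27 below, 55 above and 8 below, and 38 above and 25 below. These are 57.1%, 87.3% and 60.3% above 0, against 42.6%, 60.5% and 63.0% of all genes with total reads. At 4 h versus 0 h the SR medians (0.44 to 0.60) and hnRNP medians (0.26 to 0.42) were above 0 in all 4 scalings, whereas the SF3 (-0.03 with total reads), U2AF (-0.07) and PRPF (-0.10) medians crossed 0 with total reads and the Snrp median lay at or below 0.00 in all 4. A scaling moves all genes alike, so the distance of a family from the median of all genes is the same in each.

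**Figure D4:**
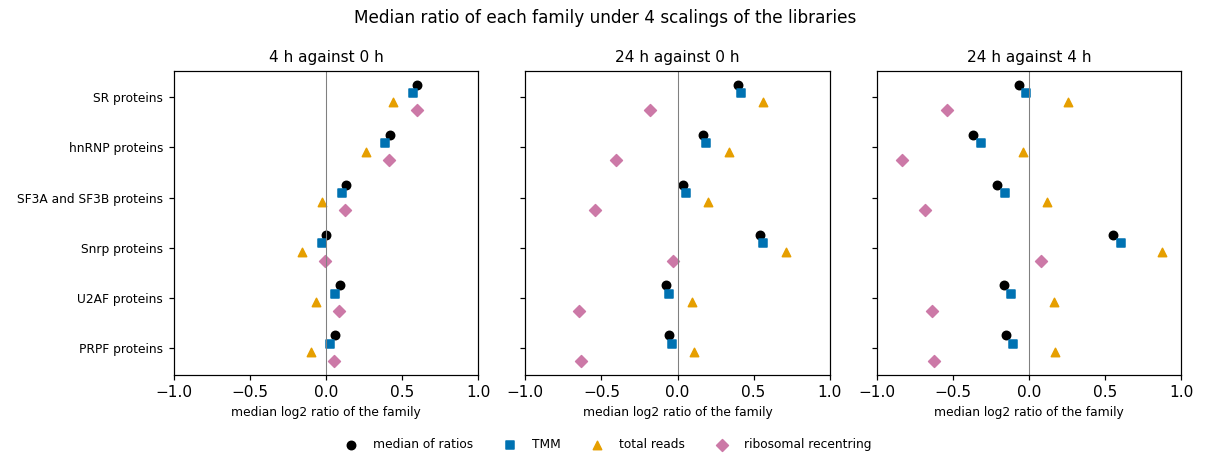
Median log2 ratio of each family in the 3 comparisons under 4 scalings of the libraries, 1 symbol per scaling. At 4 h versus 0 h the SR and hnRNP symbols all lie above 0, and at 24 h versus 0 h the symbols for centring on ribosomal proteins lie below 0 in every family.

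Another 4 listed genes carry older or different symbols and so fall outside the naming rule. Hnrpdl had 2515, 4455 and 3976 at 0, 4 and 24 h, Hnrpll 2829.6, 3016 and 2715, Sfrs18 1362, 3140 and 1879, and the U1 protein Snrnp70 3513, 4506 and 4220.4. Hnrpdl and Sfrs18 were highest at 4 h, as most members of the SR and hnRNP families were, and they enter no count above except Snrnp70 in the list of other splicing genes.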

How the data were processed

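RNA-seq values for 1 library of sorted lung macrophages at each of 0, 4 and 24 h came from 3 tables of the authors, each comparing a pair of libraries. The deposited signal values are reads per gene divided by a size factor of the pair. They gave back whole reads in 100% of values within a tolerance of 0.001 reads, and the tables list genes with a mean above 10. The deposited log2 fold changes are shrunken toward 0. DESeq2 and the build mm10 are named per the submitters' processing notes; for the aligner, counter, annotation and strand setting nothing was found (not given in the sources used here). In the table of 0 h and 24 h, 1 column headed 4 h equals the 0 h reads in 12310 of 12310 genes; it was given to no sample, and 20 repeated rows were dropped.

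Size factors were medians of ratios (1.07, 0.788 and 1.22) over the 12481 genes listed in all 3 libraries, and each library's reads were divided by its own. Log2 ratios used a pseudocount of 1. Depth was 24825976, 20379236 and 25135476 reads, and counting intervals are exact 95% binomial intervals. No model was fitted and no p-value computed. Alternatives were total reads, TMM (edgeR 4.0.16), centring on ribosomal proteins, the deposited log2 values, a mean of at least 100, a 1.5-fold threshold and a pseudocount of 10. The steps were tested on simulated data. Counts cover all 63 members, of which 1 is not reported here by name. Every member past 2-fold is named, with the 2 highest and 2 lowest of each family at 4 and 24 h against 0 h. The members, lists and thresholds were chosen with earlier results of these data known. Transcript lengths are medians over GENCODE M21 protein-coding transcripts, and promoters are from RefSeq (GRCm38.p6).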

Additional observations from a re-analysis of the deposited data

How the results depend on the processing

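Of the recomputed values, 37 held, 21 moved and 2 changed direction; the cause of each move was not tested beyond what the setting itself changes. With total reads the member median was 0.080 at 4 h versus 0 h and 0.46 at 24 h versus 0 h, and at 24 h versus 4 h it turned from -0.09 to 0.23. Counts with total reads were 3 higher and 0 lower at 24 h versus 0 h, and 6 higher and 0 lower at 24 h versus 4 h. Among all genes they were 862 higher and 864 lower of 12481, and 2887 higher and 1558 lower of 12684. Centred on ribosomal proteins, the median at 24 h versus 0 h turned from 0.29 to -0.29 and that at 24 h versus 4 h became -0.56. In this centring 0 were higher and 4 lower at 24 h versus 0 h, and 1 higher and 11 lower at 24 h versus 4 h. Among all genes 173 were higher and 3168 lower of 12481, and 881 higher and 3805 lower of 12684. By the authors' deposited log2 values 3 members were higher at 4 h versus 0 h, against 1109 of 12512 genes. At 24 h versus 0 h 0 were higher and 0 lower, against 68 and 270 of 12618 genes. At 24 h versus 4 h 1 was higher and 0 lower, against 913 and 1278 of 12578 genes. At 1.5-fold the counts were 18 higher at 4 h versus 0 h, 13 higher and 2 lower at 24 h versus 0 h, and 7 higher and 11 lower at 24 h versus 4 h. TMM, the filter at 100 and the pseudocount of 10 moved no count or median beyond its limit in the comparisons named. The count of 0 members at least 2-fold lower at 4 h was 0 in every setting run, with no test possible. Depth limited Hnrnpa1, Snrpf, Hnrnph3 and Prpf40b. No paired analysis was possible because each time has 1 library and no replicate exists.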
